A study of Mus musculus with 12 samples.

Results

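The maturation of control airway cultures was followed by setting mouse tracheal epithelial cells kept for 9 days at the air-liquid interface against the same kind of culture at day 3. Members were all named genes whose probe was detected (detection p under 0.01) on at least 3 of these 6 arrays, which left 8824 of the 20289 named genes with a probe on the array. The comparison groups were day 9 scrambled shRNA and day 3 scrambled shRNA, with 3 replicates each. The cells of both groups were primary tracheal epithelial cells of male C57BL/6J mice, grown on porous membranes with air above and medium below, and both had received a lentivirus that carries a scrambled shRNA. A control hairpin of this kind is meant to target no mouse transcript, so the cultures were transduced but not knocked down, and untransduced cells were not part of the comparison. The series also holds 3 day 9 and 3 day 3 cultures with Myb shRNA, which served as a second time comparison on other arrays, normalised and fitted together with these. The series design text gives 3 biological replicates, but the labels do not say whether they came from separate mice, pools of mice or preparations. Each p-value therefore measures the spread between these cultures, and how much of it lies between mice is not known.

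The airway lining is renewed from basal cells, which attach to the basement membrane and carry keratins such as Krt5 and Krt14. When the surface of a confluent culture is exposed to air, cells leave the basal state and become secretory (club or goblet) cells or multiciliated cells. A multiciliated cell first switches on a short regulatory programme (the geminin family proteins with E2f4 and E2f5, then Ccno, Foxj1 and the Rfx factors), makes many centrioles, docks them as basal bodies and finally builds motile axonemes from dynein arms, radial spokes and a central pair.

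Levels are normalised log2 intensities, a difference is day 9 minus day 3 on that scale with its standard error (SE), and n is 3 arrays per day throughout. Adjusted p-values are Benjamini-Hochberg values over all 8824 genes from limma's moderated test, with 0.05 as the threshold, and "rose" or "fell" is used only of genes past it. Levels of different genes come from different probes and were not set against each other. Some differences rest partly on signals below detection, given next for the scrambled arrays only. Drc7, Drc1, Serpinb12, Calml4, Bbox1, Erich3, Itln1, Dll1 and Timp4 were detected on 1 day 3 array, and Plau and Akap5 on 1 day 9 array, while Stmnd1, Cfap58, Mgp and Mex3a were detected on 2 day 3 arrays and Ivl, Tgm1, Wnt7a, Nccrp1, Ankrd1, Psca, Dll1, Mgp and Mex3a on 2 day 9 arrays. The 6 arrays detected between 29.3% and 33% of their probes. Arrays of one day correlated at 0.984 to 0.993 at day 9 and 0.969 to 0.993 at day 3, and arrays of different days at 0.923 to 0.972. On the first principal component, which held 70.5% of the variance, the day 9 arrays lay at 16.2, 18.5 and 38.2 and the day 3 arrays at -33.4, -32.4 and -7.15. Replicate 3 stood apart on both days, farther along at day 9 and closer to the day 9 arrays at day 3. Of the 180 named genes 143 passed the test, and 28 of those calls were lost without day 9 scrambled replicate 3, 5 without day 3 scrambled replicate 3 and 4 without replicate 3 of every group. Without replicate 3 of every group 8 of the other 37 passed. Of the genes described below, Dnali1, Dnaaf1, Lyz2, Lyz1, Clic6, Cep83, Cep164, Krt17, Krt7, Sfn, Tgm1, Anxa8, Itgb6, Aurka, Cdca8, Pmaip1, Ccng1, Id2, Id4, Elf5, Gata6, Nccrp1, Ankrd1, Rfx2, Foxn4, Cep152 and Mcm3 lost their call without day 9 scrambled replicate 3. Without day 3 scrambled replicate 3 the calls of Foxn4, Cep152, Aurka, Cdca8 and Mcm3 were lost. Leaving out other arrays cost calls too. Those of Rfx2, Cep83, Dnali1, Krt17, Id2 and Gata6 were among those lost both without day 3 scrambled replicate 1 and without replicate 2. The call of Clca1 was lost without day 3 scrambled replicate 1, and that of Ager without replicate 2. An epithelial cell type was borne out by keratins detected on all 6 arrays, while a tracheal origin was not tested. Among them Krt8 lay at 12.67 to 12.85 at day 9 and 12.50 to 12.78 at day 3. Krt19 lay at 12.39 to 12.56 at day 9 and 12.89 to 13.03 at day 3. Of luminal keratin and junction genes on the array, 23 of 30 were detected, and Epcam, Marveld2, Cldn8 and Ehf were detected on 0 of the 6 arrays. Of basal cell markers 24 of 30 were detected, and Krt6a, Sox15 and Perp were detected on 0 arrays.

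Between day 3 and day 9, 1605 of the 8824 genes changed (18.2%), of which 904 rose (10.2%) and 701 fell (7.94%). The median difference over all genes was -0.06. A fit that blocked on replicate number passed 2798 genes (1337 higher and 1461 lower), and without day 3 scrambled replicate 3 it was 2756 (1355 and 1401). Leaving out day 9 replicate 3, day 3 replicate 1 or day 3 replicate 2 gave 835, 1019 and 914. The 6 scrambled arrays normalised and fitted alone gave 1092 (715 higher and 377 lower). The share of calls that were rises was 56.3%, against 73.3% after cyclic loess normalisation and 45.3% after median scaling, so the balance of rises and falls depended on the scaling. The sizes were less even than the counts. A difference of over 2-fold was reached by 403 rises and 66 falls, and one of over 4-fold by 91 rises and 9 falls. Among the 7747 genes detected on all 6 arrays, 1296 passed (16.7%), 670 higher and 626 lower. At day 9 only, 104 genes were detected, and 45 at day 3 only. In 2929 genes the day 9 and day 3 arrays did not overlap (33.2%), with day 9 the higher in 1292 (14.6%) and the lower in 1637 (18.6%).

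**Figure D1:**
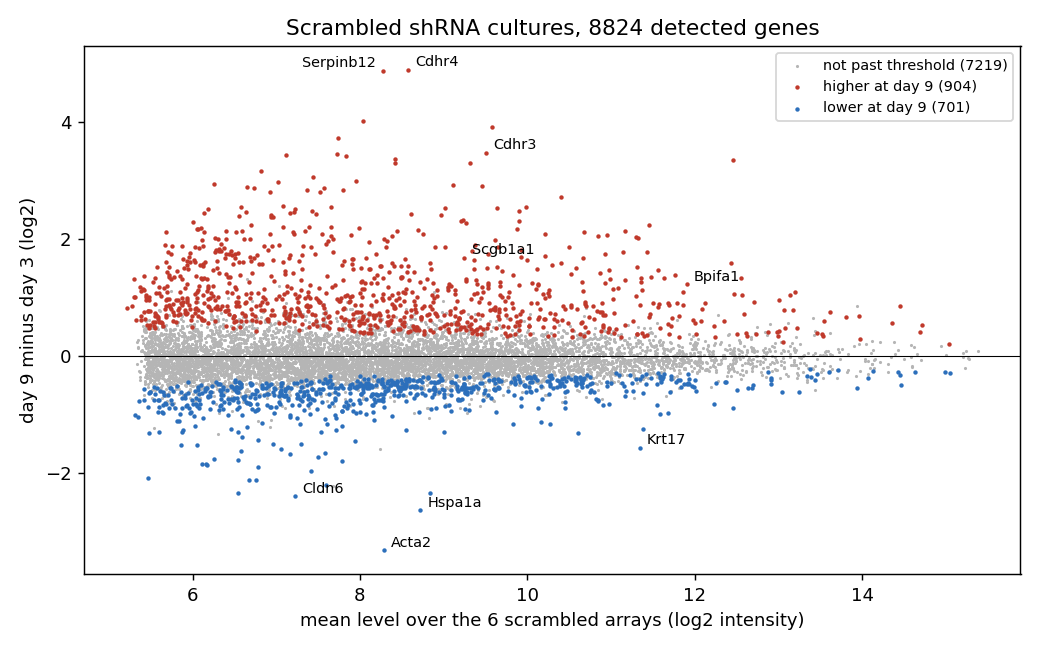
Each point is 1 of the 8824 detected genes, with its mean level over the 6 scrambled arrays across (log2 intensity) and its difference, day 9 minus day 3, up the axis (log2). The 904 genes higher at day 9 (red) reach further from 0 than the 701 lower genes (blue), and grey points did not pass the threshold.

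Most detected genes of the motile cilium rose. In the 7 cilium lists together, 119 of 155 detected members rose, 1 fell, and the median difference was 1.09, against -0.06 over all genes. Without day 3 scrambled replicate 3 the count was 132 rises and 0 falls. Cdhr4, a cadherin-related protein, had levels of 10.68, 10.62 and 11.76 on the day 9 arrays, against 6.09, 5.82 and 6.49 on the day 3 arrays. The groups were far apart on every array. Its difference of 4.89 ± 0.35 (adjusted p = 2.86e-06), 29.7-fold, was the largest rise of all 8824 genes. Cdhr3, a related cadherin that serves as the receptor for rhinovirus C in human airways, had levels of 10.99, 10.96 and 11.79 on the day 9 arrays, against 7.41, 7.52 and 8.40 on the day 3 arrays. It rose by 3.47 ± 0.33, 11.1-fold (adjusted p = 1.95e-05), with no overlap between the days. Stmnd1, a stathmin-domain protein, rose by 3.73 ± 0.35 (adjusted p = 1.71e-05). Of the 43 detected members of the list of other ciliated cell markers 41 rose, 0 fell and the median was 1.45. They included Capsl (1.69 ± 0.14), Fam183b (2.24 ± 0.21), the tubulin polymerisation protein Tppp3 (1.78 ± 0.17), and the tubulins Tuba1a (1.38 ± 0.19) and Tubb4b (0.75 ± 0.12).

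Among axonemal dyneins, the motors that bend the axoneme, and their docking proteins, 15 of 18 detected members rose, 0 fell and the median was 1.71. Dnah9, a heavy chain of the outer dynein arm, had levels of 8.69, 8.64 and 10.31 on the day 9 arrays, against 6.34, 5.82 and 6.98 on the day 3 arrays. Replicate 3 was the highest on both days, and the groups did not overlap. Its difference was 2.83 ± 0.51, 7.13-fold (adjusted p = 0.00204). The intermediate chain gene Dnaic1 rose by 1.97 ± 0.33 (adjusted p = 0.00123), the inner arm chain Wdr78 by 1.79 ± 0.33 (adjusted p = 0.00242) and the docking protein Ccdc114 by 1.53 ± 0.26 (adjusted p = 0.00142). The light chain genes Tctex1d4 and Dynlrb2 rose by 2.48 ± 0.29 and 1.05 ± 0.19. Cytoplasmic assembly factors, which fold and preassemble the dynein arms before they enter the cilium, rose in 6 of 11 detected members with a median of 0.54. Lrrc6 rose by 1.73 ± 0.32 and Dnaaf3 by 1.60 ± 0.26. Zmynd10, another assembly factor, had levels of 9.21, 8.89 and 9.41 on the day 9 arrays, against 8.41, 8.47 and 9.21 on the day 3 arrays. The days overlapped and it did not pass (0.47 ± 0.22, adjusted p = 0.164), although with the replicate block its adjusted p was 0.0144. Without day 3 scrambled replicate 3 it was 0.0146, and 0.00349 without replicate 3 of every group. Daw1 was not detected on any day 3 array and was at least 1.77-fold higher at day 9 (adjusted p = 6.50e-04). Such lower bounds set the day 9 mean against the lowest detected signal of each day 3 array, or the probe's own where that was higher, and the other way round for falls. Dnaaf1 rose by 1.25 ± 0.31, but its probes disagreed in direction.

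Radial spokes, which relay signals between the central pair and the dynein arms, rose with the central pair genes in 16 of 17 detected members (median 1.40). Rsph4a, a spoke head protein, had levels of 10.94, 10.92 and 11.55 on the day 9 arrays, against 8.40, 8.18 and 9.38 on the day 3 arrays. All day 9 arrays were above all day 3 arrays, by 2.49 ± 0.31 or 5.6-fold (adjusted p = 1.56e-04). Rsph14 (2.06 ± 0.21), Dnajb13 (1.64 ± 0.24) and Rsph1 (1.34 ± 0.27) rose as well. Lrrc23, the remaining member, had levels of 10.71, 10.79 and 10.96 on the day 9 arrays, against 10.19, 10.29 and 10.99 on the day 3 arrays. Its days overlapped and it did not pass (0.33 ± 0.25, adjusted p = 0.377), although its adjusted p was 0.0157 without replicate 3 of every group. Nexin links, tektins and proteins inside the doublet microtubules rose in 18 of 21 detected members (median 1.24), among them the regulatory complex genes Drc7 (1.91 ± 0.22) and Drc1 (1.67 ± 0.24), and Enkur (1.38 ± 0.18). Cfap53 was not detected at day 3 and was at least 3.05-fold higher at day 9 (adjusted p = 1.14e-04).

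Intraflagellar transport, the traffic of cargo along the axoneme, and the BBSome had 20 of 28 detected members higher, 0 lower and a median of 0.71. Ift172, a subunit of the anterograde train, had levels of 11.75, 11.69 and 12.50 on the day 9 arrays, against 9.58, 9.62 and 10.55 on the day 3 arrays. The days did not overlap, and the difference was 2.06 ± 0.28, 4.18-fold (adjusted p = 3.11e-04). Dync2li1, a subunit of the retrograde motor, rose by 1.12 ± 0.12 (adjusted p = 3.75e-05), Ift88 by 1.09 ± 0.20 and Bbs7 by 1.20 ± 0.19. Ift20 had levels of 11.99, 11.92 and 11.81 on the day 9 arrays, against 11.95, 11.88 and 11.81 on the day 3 arrays. These levels overlapped and did not pass (0.03 ± 0.09, adjusted p = 0.852). The difference in size between the dynein, transport and assembly lists was not tested.

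**Figure D2:**
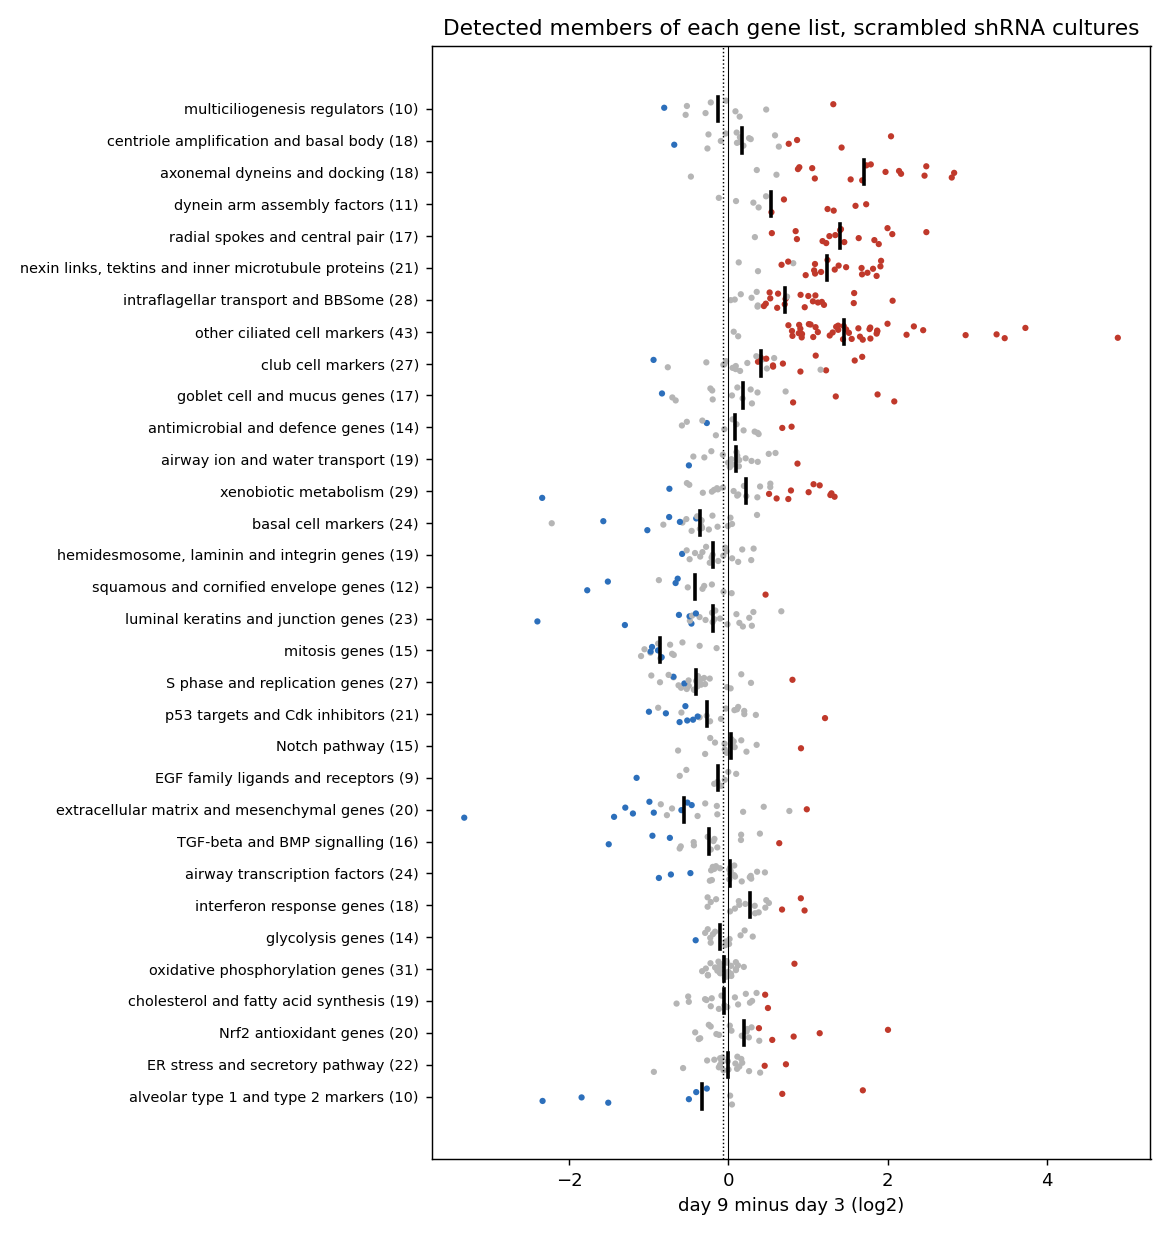
Each point is a detected member of a gene list (number of detected members in brackets), placed by its difference, day 9 minus day 3 (log2), with members that rose in red, those that fell in blue and the others in grey. Black bars are list medians and the dotted line is the median of all genes; the dynein list has its median at 1.71, the mitosis list at -0.85 and the Notch list at 0.04.

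Of 10 detected regulators upstream of the axoneme, 1 rose and 1 fell, with a median of -0.13. Rfx2, a transcription factor of ciliary genes, had levels of 9.80, 9.83 and 10.15 on the day 9 arrays, against 8.17, 8.26 and 9.40 on the day 3 arrays. Replicate 3 of day 3 was the closest to the day 9 arrays, but the days did not overlap. The difference was 1.32 ± 0.31, 2.49-fold (adjusted p = 0.00995, 0.0506 without day 9 scrambled replicate 3). Foxj1, the forkhead factor of motile cilia, had levels of 6.88, 7.42 and 7.41 on the day 9 arrays, against 6.57, 6.81 and 6.90 on the day 3 arrays. The lowest day 9 array lay below the highest day 3 array, and the difference of 0.47 ± 0.26 did not pass (adjusted p = 0.232). Day 9 was the higher in each of the 3 same-numbered pairs. With the replicate block over all arrays of the series the difference did not pass either (adjusted p = 0.0637). Foxj1 stayed short of the threshold under 18 of 20 alternatives. The exceptions were the block on the 6 scrambled arrays alone (adjusted p = 0.0326) and array weights (0.0446), whose estimate stopped before it converged.

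Ccno, a cyclin-like protein needed for centriole amplification, had levels of 11.59, 11.77 and 11.29 on the day 9 arrays, against 11.71, 11.89 and 12.65 on the day 3 arrays. Replicate 3 was lowest at day 9 and highest at day 3, the days overlapped, and the difference of -0.54 ± 0.22 did not pass (adjusted p = 0.111, 0.0308 with the replicate block). Mcidas, the geminin family switch of the programme, had levels of 8.24, 8.10 and 7.85 on the day 9 arrays, against 8.21, 8.15 and 9.40 on the day 3 arrays. Only replicate 3 of day 3 stood clear of the other arrays (-0.52 ± 0.33, adjusted p = 0.292). Foxn4, a forkhead factor of the same programme, had levels of 7.24, 7.60 and 6.96 on the day 9 arrays, against 7.59, 7.87 and 8.77 on the day 3 arrays. It passed narrowly with overlapping days (-0.81 ± 0.26, adjusted p = 0.047), and the call held under 8 of 20 alternatives (adjusted p = 0.0645 with the block on the 6 scrambled arrays alone). Ccna1 (0.14 ± 0.20), E2f4 (-0.29 ± 0.15), E2f5 (0.09 ± 0.16), Tfdp1 (-0.22 ± 0.12) and Tfdp2 (-0.03 ± 0.20) had adjusted p-values of 0.656, 0.192, 0.741, 0.204 and 0.932. Gmnc, Rfx3, Trp73, Cdc20b and Gmnn were detected on 0 of the 6 arrays and Myb on 1. Without replicate 3 of every group, 1 of the 10 rose and 0 fell.

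Centriole and basal body genes were mixed, with 4 of 18 detected members higher, 1 lower and a median of 0.17. Cetn4, a centrin, had levels of 12.23, 12.14 and 12.59 on the day 9 arrays, against 10.19, 10.04 and 10.62 on the day 3 arrays. It was clearly separated by day, at 2.04 ± 0.20 or 4.12-fold (adjusted p = 2.50e-05). Ccdc78, a deuterosome protein, rose by 1.42 ± 0.25 (adjusted p = 0.00158), and the distal appendage genes Cep83 and Cep164 by 0.86 ± 0.25 and 0.76 ± 0.25. Cep152, a scaffold of new centrioles, fell with a difference of -0.68 ± 0.22 (adjusted p = 0.0474). The Cep152 call held under 9 of 20 alternatives and that of Cep164 under 10. Without day 3 scrambled replicate 3, 8 of the 18 rose and 0 fell.

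**Figure D3:**
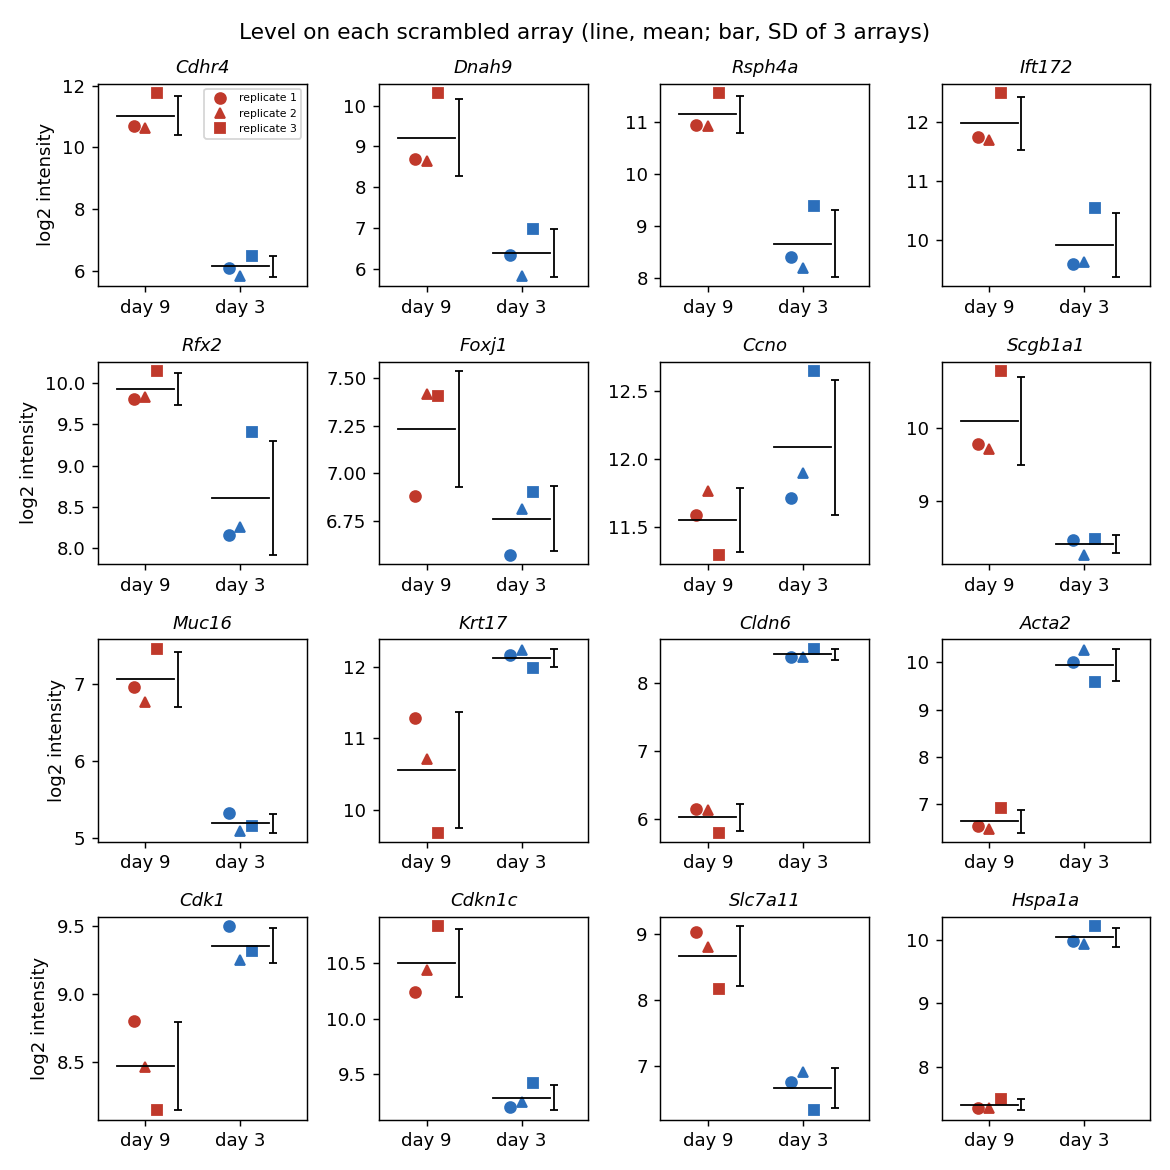
Levels (log2 intensity) of 16 genes on each scrambled array, day 9 in red and day 3 in blue, with the mean as a line and the SD of 3 arrays as a bar; each panel has its own vertical scale. Cdhr4, Dnah9, Rsph4a and Ift172 separate the days fully, whereas Foxj1 and Ccno overlap.

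Promoters of cilium genes were searched for letters of the X-box, the sequence bound by Rfx factors, in RefSeq promoters of build GRCm38.p6 that run from 250 bases before to 50 bases after each gene's start. Shown are the 3 risers of the cilium lists with the largest rise that hold the form GTNNCCNNNGNAAC on either strand, with the match in capitals, chosen after their values were seen. They are Ttc29 (chr8:78213092-78213391), Ccdc114 (chr7:45923965-45924264) and Cfap206 (chr4:34730157-34730456).
Ttc29: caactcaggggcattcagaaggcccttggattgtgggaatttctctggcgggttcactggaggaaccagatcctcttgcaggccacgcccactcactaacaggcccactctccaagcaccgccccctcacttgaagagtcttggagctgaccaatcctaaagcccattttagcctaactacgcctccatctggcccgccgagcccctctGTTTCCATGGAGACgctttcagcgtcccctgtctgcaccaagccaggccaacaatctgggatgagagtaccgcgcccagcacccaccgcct
Ccdc114: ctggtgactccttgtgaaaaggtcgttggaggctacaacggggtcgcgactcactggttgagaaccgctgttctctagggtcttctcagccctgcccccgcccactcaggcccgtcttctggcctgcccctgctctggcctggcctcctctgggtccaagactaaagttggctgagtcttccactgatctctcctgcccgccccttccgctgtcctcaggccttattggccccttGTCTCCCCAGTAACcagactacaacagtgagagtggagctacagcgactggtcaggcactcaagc
Cfap206: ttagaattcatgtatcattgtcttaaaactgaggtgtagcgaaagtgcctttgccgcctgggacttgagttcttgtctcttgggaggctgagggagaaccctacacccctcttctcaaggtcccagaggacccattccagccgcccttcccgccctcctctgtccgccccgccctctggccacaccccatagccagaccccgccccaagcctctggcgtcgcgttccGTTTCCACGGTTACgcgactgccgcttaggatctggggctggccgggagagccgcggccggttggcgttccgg
Ttc29 rose by 2.33 ± 0.33 (adjusted p = 3.77e-04) and Cfap206 by 1.46 ± 0.25 (adjusted p = 0.00141), beside the docking protein Ccdc114 above.

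This form was held by 74 of the 726 risers with a promoter in the table (10.2%), 7 of the 548 genes that fell (1.28%), 173 of the 5825 that did not pass (2.97%) and 254 of the 7099 detected genes (3.58%). Of all 27025 promoters in the table, 673 held it (2.49%). Among risers of the cilium lists it was 17 of 102 (16.7%), and among risers outside those lists 57 of 624 (9.13%). The form is 1 of 14 motif spellings that were searched, 6 of them for the X-box, and it was chosen for printing after these shares had been seen. The order was alike for the looser GTNNCCNNNGNNAC (27 of 102 cilium risers, or 26.5%, 16% of all risers, 4.74% of genes that fell and 7.25% of detected genes). It was also alike for GTTGCC (42.2%, 28.4%, 11.7% and 15.6%), GTTGCCATG (4.9%, 2.89%, 0% and 0.789%) and a gapped degenerate form (11.8%, 9.23%, 0.73% and 3.13%). A strict degenerate form of the X-box did not follow it. That form was held by 0 of the 102 cilium risers and 3 of 726 risers (0.413%), with 23 of 7099 detected genes (0.324%).

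The 8 spellings of other motifs are given for all risers, genes that fell and detected genes, and then for cilium risers. The forkhead letters GTAAACA were held by 4.55% of risers, 3.28% of genes that fell and 3.3% of detected genes. For the CCAAT box the shares were 43.8%, 44.9% and 43%, and for the antioxidant response element TGACNNNGC 16.8%, 15.9% and 16.8%. For the E2F letters TTTCCCGC they were 1.65%, 4.01% and 2.44%, for the CArG box 1.65%, 3.47% and 1.59%, and for the heat shock element 0.138%, 0.73% and 0.507%, or 1, 4 and 36 genes. The letters TTTGAA of the cell cycle homology region had 15.2%, 14.1% and 13.6%, and their degenerate form 25.6%, 25.4% and 23.9%. Among cilium risers the share was 3.92% for the forkhead letters, 52% for the CCAAT box and 10.8% for the antioxidant response element. It was 2.94% for the E2F letters, 0.98% for the CArG box and 0% for the heat shock element. For TTTGAA it was 9.8%, and for the degenerate form 21.6%. Base composition differs between promoters and was not matched, no test was run, and a match describes letters only.

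**Figure D4:**
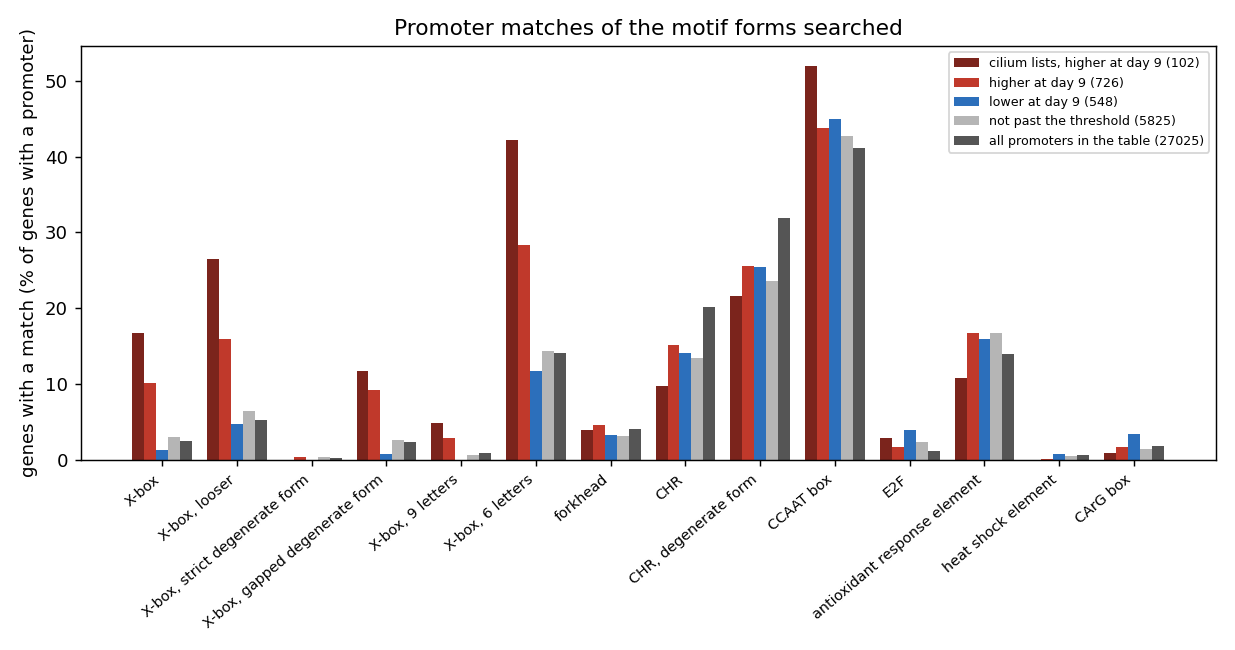
Bars give the percent of genes with a match in their 300-base promoter for each of the 14 motif spellings searched, by group of genes (number with a promoter in brackets). For 5 of the 6 X-box spellings the cilium risers stand highest, whereas the strict form was held by 0 of 102 of them.

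Secretory genes rose in part. Club cell markers had 11 of 27 detected members higher, 1 lower and a median of 0.40, where 10.2% of all genes rose and 7.94% fell. Scgb1a1, the main secretoglobin of club cells, had levels of 9.78, 9.70 and 10.78 on the day 9 arrays, against 8.47, 8.27 and 8.48 on the day 3 arrays. Replicate 3 of day 9 was the highest, and the days did not overlap (1.68 ± 0.26, 3.2-fold, adjusted p = 6.53e-04). Bpifa1, a secreted surface protein, had levels of 12.57, 12.40 and 12.58 on the day 9 arrays, against 11.21, 11.31 and 11.36 on the day 3 arrays. It was separated by 1.23 ± 0.11 (adjusted p = 1.11e-05). Haptoglobin (Hp) rose by 1.59 ± 0.25, the retinaldehyde dehydrogenase Aldh1a1 by 0.90 ± 0.14 and the glutathione peroxidase Gpx2 by 0.68 ± 0.10. Krt4, a luminal keratin in this list, fell (-0.94 ± 0.17, adjusted p = 0.00222). Cyp2f2, the club cell cytochrome, had levels of 15.43, 15.43 and 15.43 on the day 9 arrays, against 15.37, 15.28 and 15.37 on the day 3 arrays. These levels lay near the top of the array's range and did not pass (0.09 ± 0.07, adjusted p = 0.391).

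Goblet cell and mucus genes had 4 of 17 detected members higher and 1 lower (5 and 3 with the replicate block), with a median of 0.18. Clca3b had levels of 10.97, 10.89 and 11.89 on the day 9 arrays, against 8.74, 9.05 and 9.72 on the day 3 arrays. Its difference was 2.08 ± 0.30, 4.24-fold (adjusted p = 4.45e-04). Muc16, a membrane mucin, was not detected at day 3 and was at least 2.8-fold higher at day 9 (adjusted p = 0.00164). The lectin Itln1 (1.35 ± 0.23) and Clca1 (0.81 ± 0.19) rose, and the membrane mucin Muc20 fell (-0.83 ± 0.18). Gp2 had a difference of -0.70 ± 0.31 (adjusted p = 0.129, 0.0248 with the replicate block and 0.0305 without day 9 scrambled replicate 3). Antimicrobial genes rose in 2 and fell in 1 of 14 (3 and 3 with the block), where 10.2% of all genes rose and 7.94% fell. Lyz2 rose by 0.79 ± 0.23, and Lyz1 by 0.68 ± 0.22 with probes that disagreed in direction. Lactotransferrin (Ltf, -0.05 ± 0.07) and lipocalin (Lcn2, 0.19 ± 0.17) did not pass, at adjusted p = 0.647 and 0.477. The Ltf probe lay near the top of the array's range (15.21 to 15.28 at day 9 and 15.21 to 15.37 at day 3), and with the mean of its detected probes the difference was -0.73 (adjusted p = 0.00163). For Lcn2 the adjusted p was 0.00787 without replicate 3 of every group. Slpi, a protease inhibitor, had -0.52 ± 0.22 (adjusted p = 0.12, 0.0055 with the block and 0.026 without day 3 scrambled replicate 3).

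Detoxifying enzymes rose in 10 and fell in 2 of 29 detected members (median 0.22). Of all genes 10.2% rose and 7.94% fell, so the share that fell was near that of all genes. The aldehyde dehydrogenase Aldh3b1 had levels of 11.98, 11.99 and 12.12 on the day 9 arrays, against 10.69, 10.74 and 10.66 on the day 3 arrays. The days were well separated (1.33 ± 0.11, adjusted p = 8.83e-06). Cyp4f15 (1.01 ± 0.13), Adh7 (0.60 ± 0.08) and Adh1 (0.75 ± 0.13) rose too. Akr1c18, a steroid dehydrogenase, had levels of 8.18, 7.84 and 7.00 on the day 9 arrays, against 10.22, 9.98 and 9.83 on the day 3 arrays. It fell on all arrays, with a difference of -2.34 ± 0.23 (adjusted p = 2.51e-05). Ion and water transport changed in 2 of 19 members (4 with the block), where 18.2% of all genes changed. The chloride channel family gene Clic6 rose (0.87 ± 0.25) and the water channel Aqp5 fell (-0.50 ± 0.07, adjusted p = 5.62e-04).

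Other large rises had varied functions, and Fam216b and Erich3 among them are members of the list of other ciliated cell markers. Serpinb12, a serine protease inhibitor of clade B, had levels of 10.41, 10.19 and 11.54 on the day 9 arrays, against 5.61, 5.27 and 6.64 on the day 3 arrays. It was detected on 1 day 3 array and the fitted difference was 4.87 ± 0.48 (adjusted p = 2.51e-05). Its size depends on day 3 signals mostly below detection, and over 19 alternatives it ranged from 3.08 to 5.27. Diras2, a small GTPase of the Ras family, had levels of 9.58, 9.52 and 11.04 on the day 9 arrays, against 5.90, 5.72 and 6.47 on the day 3 arrays. It rose by 4.01 ± 0.47 (adjusted p = 9.60e-05). Aoc1, the diamine oxidase that degrades histamine, rose by 3.46 ± 0.35, the calmodulin-like gene Calml4 by 3.44 ± 0.27, the lipid-binding protein gene Sec14l3 by 3.35 ± 0.36, the carnitine synthesis enzyme Bbox1 by 3.17 ± 0.27 and the cadherin Cdh26 by 2.99 ± 0.38. Fam216b (3.37 ± 0.37), Cfap97d2 (3.29 ± 0.23), Cfap58 (3.07 ± 0.35) and Erich3 (2.98 ± 0.48) complete the group, with Lrrc18 at least 4.43-fold higher.

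Of 24 detected basal cell markers, 0 rose, 5 fell and 19 did not pass, where 7.94% of all genes fell. The falls came to 10 with the replicate block, and to 6 with 1 rise without day 3 scrambled replicate 3, and the median was -0.36. Krt17, a keratin of activated basal cells, had levels of 11.28, 10.71 and 9.68 on the day 9 arrays, against 12.17, 12.23 and 11.99 on the day 3 arrays. The day 9 arrays spread widely but stayed below every day 3 array (-1.57 ± 0.43, adjusted p = 0.0228). Krt15 had levels of 12.72, 12.94 and 12.54 on the day 9 arrays, against 13.17, 13.22 and 13.64 on the day 3 arrays. It fell with a difference of -0.61 ± 0.13 (adjusted p = 0.00679). Krt14 had levels of 10.98, 10.43 and 10.26 on the day 9 arrays, against 11.20, 10.95 and 11.25 on the day 3 arrays. The days overlapped at one end and it did not pass (-0.58 ± 0.19, adjusted p = 0.0546, 0.0147 with the block). Cav1, which shapes caveolae, fell (-1.02 ± 0.20), as did podoplanin (Pdpn, -0.41 ± 0.09) and the 14-3-3 protein Sfn (-0.74 ± 0.22). Among hemidesmosome, laminin and integrin genes, Itgb6 fell (-0.58 ± 0.16, adjusted p = 0.0201), the 1 call of 19 members (3 with the block), a share near that of all genes.

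Of 30 squamous and cornified envelope genes on the array 12 were detected, of which 4 fell and 1 rose (median -0.42). Of all genes 7.94% fell and 10.2% rose. Involucrin (Ivl) had levels of 5.95, 5.82 and 5.20 on the day 9 arrays, against 7.59, 7.66 and 7.04 on the day 3 arrays. It was detected on 2 day 9 arrays and all day 3 arrays and differed by -1.77 ± 0.37 (adjusted p = 0.00511). Sprr1a was detected on no day 9 array and was lower at day 9 by a factor of at least 2.18 (adjusted p = 0.00192). Tgm1 fell (-0.64 ± 0.20, held under 10 of 19 alternatives) and Anxa8 rose (0.47 ± 0.13). Luminal keratins and junction genes fell in 6 of 23, with 0 higher and a median of -0.20 (9 lower and 1 higher with the block). Cldn6, a claudin of tight junctions, had levels of 6.14, 6.14 and 5.80 on the day 9 arrays, against 8.38, 8.38 and 8.51 on the day 3 arrays. The groups were far apart (-2.40 ± 0.29, adjusted p = 1.15e-04). Cldn1 was not detected at day 9 and was lower at day 9 by a factor of at least 1.69 (adjusted p = 0.00197). Krt7 (-0.62 ± 0.15) and Krt19 (-0.49 ± 0.09) fell, while Krt8 did not pass (0.10 ± 0.13, adjusted p = 0.625).

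All 15 detected mitosis genes had a negative difference, with a median of -0.85, and 4 of them fell (9 with the replicate block, 4 without day 3 scrambled replicate 3). Of all genes 7.94% fell. Cdk1, the kinase that drives entry into mitosis, had levels of 8.80, 8.46 and 8.15 on the day 9 arrays, against 9.49, 9.25 and 9.32 on the day 3 arrays. The days did not overlap (-0.89 ± 0.15, adjusted p = 0.00121). Kif23, a kinesin of the midbody, had levels of 7.78, 7.70 and 7.54 on the day 9 arrays, against 9.02, 8.76 and 8.11 on the day 3 arrays. It fell with a difference of -0.96 ± 0.20 (adjusted p = 0.00585). With the mean of its detected probes the difference was -0.58 and the call was lost (adjusted p = 0.06). The chromosomal passenger gene Cdca8 (-0.98 ± 0.30) and the kinase gene Aurka (-0.84 ± 0.26, held under 11 of 20 alternatives) fell, and topoisomerase Top2a did not pass (-0.58 ± 0.35, adjusted p = 0.275). S phase genes fell in 2 and rose in 1 of 27 (11 lower and 1 higher with the block), with a median of -0.41, and the share that fell was near that of all genes. Rrm1 fell (-0.69 ± 0.16) and Rfc2 rose (0.80 ± 0.11). Mcm3 fell by the main test (-0.55 ± 0.18, adjusted p = 0.0479), which held under 5 of 20 alternatives (adjusted p = 0.0608 with the block on the 6 scrambled arrays alone).

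Promoters of Cdk1 (chr10:69352863-69353162) and Kif23 (chr9:61946750-61947049) show the letters TTTGAA of the cell cycle homology region in capitals, found on either strand. They are the mitosis genes of smallest p that hold it.
Cdk1: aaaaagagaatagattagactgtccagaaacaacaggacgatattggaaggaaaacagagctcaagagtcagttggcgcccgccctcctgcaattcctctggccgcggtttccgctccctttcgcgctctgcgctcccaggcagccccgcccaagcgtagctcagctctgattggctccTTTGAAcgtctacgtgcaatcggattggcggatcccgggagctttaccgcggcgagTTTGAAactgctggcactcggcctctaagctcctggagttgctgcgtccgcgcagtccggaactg
Kif23: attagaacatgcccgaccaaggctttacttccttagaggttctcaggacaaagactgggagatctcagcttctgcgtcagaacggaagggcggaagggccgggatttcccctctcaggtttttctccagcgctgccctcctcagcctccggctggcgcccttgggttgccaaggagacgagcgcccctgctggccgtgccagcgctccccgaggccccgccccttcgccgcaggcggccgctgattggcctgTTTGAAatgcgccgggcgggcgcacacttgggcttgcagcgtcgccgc
Of the 14 detected mitosis genes with a promoter in the table, 12 held TTTGAA (85.7%), against 13.6% of all detected genes and 20.2% of all genes. The CCAAT box was held by 11 of the 14 (78.6%), against 43% of detected genes, and the E2F letters by 0. No test was run.

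Targets of p53 and Cdk inhibitors fell in 7 and rose in 1 of 21 detected members (median -0.27). Of all genes 7.94% fell and 10.2% rose. Cdkn1c, the Cdk inhibitor p57, had levels of 10.24, 10.44 and 10.83 on the day 9 arrays, against 9.20, 9.25 and 9.42 on the day 3 arrays. It was the riser, with no overlap (1.21 ± 0.18, 2.32-fold, adjusted p = 5.90e-04). Cdkn1a, the inhibitor p21, had levels of 12.15, 12.22 and 12.05 on the day 9 arrays, against 12.52, 12.54 and 12.70 on the day 3 arrays. It fell with a difference of -0.45 ± 0.10 (adjusted p = 0.00745). The p53 targets Pmaip1 (to 0.5 of its day 3 level) and Ccng1 (-0.52 ± 0.14) fell as well.

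Genes of the matrix and of contractile cells held the largest fall, as measured by 1 probe per gene. Acta2, smooth muscle actin, had levels of 6.53, 6.46 and 6.90 on the day 9 arrays, against 10.01, 10.26 and 9.58 on the day 3 arrays. Every day 9 array was far below every day 3 array (-3.32 ± 0.40, 0.1 of the day 3 level, adjusted p = 1.19e-04). With the mean of its detected probes the difference was -2.12 (adjusted p = 1.52e-04). In that setting Cldn6 (-2.40) and Akr1c18 (-2.34) had larger falls. In the list of matrix and mesenchymal genes 9 of 20 detected members fell and 1 rose (median -0.55). Of all genes 7.94% fell and 10.2% rose. The matrix protein gene Sparc (-1.30 ± 0.19), the collagen cross-linker Lox (-0.94 ± 0.21) and the membrane protease Mmp14 (-0.59 ± 0.13) fell. Mmp2 was not detected at day 3 and was at least 1.54-fold higher at day 9 (adjusted p = 0.00507). Of 20 fibroblast and smooth muscle markers on the array, 6 were detected, and 3 of those (Acta2, Sparc and Lox) fell. Their mean intensity ranged from 177.3 to 200.8 at day 9 and from 371.8 to 575.5 at day 3. Dcn (-0.14 ± 0.19), Mgp (0.18 ± 0.33) and Fbln1 (0.02 ± 0.22) did not pass, and the other 14, Col1a1, Col1a2, Col3a1, Pdgfra, Pdgfrb, Myh11 and Tagln among them, were detected on 0 of the 6 arrays. In such cultures fewer cells of a type and less RNA per cell cannot be told apart.

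Other falls of size were spread over several functions. Hspa1a, the inducible heat shock protein of the Hsp70 family, had levels of 7.35, 7.35 and 7.50 on the day 9 arrays, against 9.98, 9.93 and 10.21 on the day 3 arrays. The days were separated by -2.64 ± 0.15 (adjusted p = 5.03e-07), and replicates differed little. Mcam, an adhesion molecule, had levels of 6.64, 6.20 and 6.67 on the day 9 arrays, against 8.83, 9.04 and 8.24 on the day 3 arrays. It fell with a difference of -2.20 ± 0.26 (adjusted p = 1.14e-04). The ligand gene Wnt7a (-2.12 ± 0.31), the anchoring protein gene Akap5 (-2.33 ± 0.32), Ankrd1 (-1.97 ± 0.60), Psca (-1.90 ± 0.38), the urokinase gene Plau (-1.86 ± 0.30), Nccrp1 (-2.12 ± 0.54) and Cavin3 (-1.79 ± 0.33) fell. Ccdc80, Col4a3 and Sncg were not detected at day 9 and were at least 2.02-fold, 2.91-fold and 2.99-fold lower.

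The Notch and EGF family lists had 1 call each, where 10.2% of all genes rose and 7.94% fell. Among TGF-beta and BMP genes and airway transcription factors the share that fell was above that of all genes, which was not tested. In the Notch pathway 1 of 15 detected members rose (1 higher and 1 lower with the block), with a median of 0.04 whose sign turned under 5 alternatives. Hes6 had levels of 11.88, 11.96 and 12.56 on the day 9 arrays, against 11.19, 11.13 and 11.34 on the day 3 arrays. It was the riser (0.91 ± 0.15, adjusted p = 0.00103). Hes1 had levels of 10.26, 10.13 and 10.35 on the day 9 arrays, against 10.25, 10.16 and 10.47 on the day 3 arrays. Its days overlapped (-0.05 ± 0.12, adjusted p = 0.814). The target Hey1 (0.08 ± 0.22), the receptor Notch3 (-0.17 ± 0.14) and the ligands Dll1 (-0.02 ± 0.24) and Jag2 (0.04 ± 0.28) did not pass, and Dtx4 had -0.63 ± 0.23 (adjusted p = 0.0773, 0.00403 with the block and 0.0374 without day 9 scrambled replicate 3). Errfi1, a feedback inhibitor of the EGF receptor, fell (-1.15 ± 0.19, adjusted p = 0.00106), the 1 call among 9 EGF family members (3 with the block). In TGF-beta and BMP signalling 3 of 16 fell and 1 rose (6 and 2 with the block). Tgfb1 fell (-0.74 ± 0.14), Id2 fell (-1.50 ± 0.40), Id4 rose (0.64 ± 0.19, held under 12 of 20 alternatives), and Tgfb3 was at least 1.53-fold lower. Airway transcription factors fell in 3 of 24 (3 lower and 2 higher with the block), among them Elf5 (-0.87 ± 0.21) and Gata6 (-0.72 ± 0.19).

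The glycolysis and oxidative phosphorylation lists held few calls, where 10.2% of all genes rose and 7.94% fell. In the Nrf2 antioxidant and interferon lists the share of rises was above that of all genes, which was not tested. Of 20 detected Nrf2 antioxidant genes, 5 rose and 0 fell (7 and 2 with the block), with a median of 0.20. Slc7a11, the cystine transporter, had levels of 9.04, 8.81 and 8.17 on the day 9 arrays, against 6.76, 6.92 and 6.33 on the day 3 arrays. The days did not overlap (2.00 ± 0.26, 4.01-fold, adjusted p = 1.93e-04). Nqo1 (1.15 ± 0.25) and haem oxygenase (Hmox1, 0.82 ± 0.20) rose. Interferon response genes rose in 3 of 18, with Usp18 at 0.91 ± 0.13. Glycolysis fell in 1 of 14 (Ldha, -0.41 ± 0.08; 3 with the block) and oxidative phosphorylation rose in 1 of 31 (Ppargc1a, 0.83 ± 0.17; 1 higher and 3 lower with the block). Among sterol and fatty acid synthesis genes 2 of 19 rose (2 higher and 2 lower with the block), and among secretory pathway genes 2 of 22 (3 and 2). Both shares of rises were near that of all genes.

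Markers of other cell types were few. Of 21 leukocyte markers on the array 4 were detected, and the mean intensity of these was 3538 to 3969 at day 9 and 2441 to 3689 at day 3. The Lyz2 probe had by far the highest signal of the 4, with a mean level of 13.46 at day 9 and 12.67 at day 3, so the group mean largely gives Lyz2. Lyz2 rose as given above, Laptm5 (-1.03 ± 0.19) and Cd14 (-0.41 ± 0.10) fell, and Cd68 did not pass (-0.18 ± 0.16). Ptprc, which marks all leukocytes, and the other 16 were detected on 0 of the 6 arrays. Of 14 endothelial markers 3 were detected. Plvap fell (-0.95 ± 0.21) and Egfl7 did not pass (-0.29 ± 0.22), while Pecam1 and Cdh5 were detected on 0 arrays. The ionocyte list had 1 detected member of 11, the proton pump subunit Atp6v1c2, which rose (0.87 ± 0.18), and Foxi1 was detected on 1 array. In the tuft cell list 2 of 14 were detected, Gng13, which rose (1.49 ± 0.21), and Dclk1, which did not pass (-0.28 ± 0.18). None of 12 neuroendocrine markers was detected. Krt13, a keratin of stratified epithelium, had levels of 7.11, 7.03 and 5.58 on the day 9 arrays, against 9.26, 9.33 and 7.79 on the day 3 arrays. Replicate 3 was lowest on both days and the difference of -2.22 ± 1.00 did not pass in the fit over all 12 arrays (adjusted p = 0.142), although every day 9 array lay below every day 3 array. That fit shares its estimate of the spread with the Myb shRNA cultures, whose day 9 arrays had 6.30, 6.03 and 10.99. In the 6 scrambled arrays alone the difference was -2.22 with an adjusted p of 0.016, with the replicate block added it was 1.22e-05, and without replicate 3 of every group 6.59e-09.

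Alveolar markers fell in 6 and rose in 2 of 10 detected members, where 7.94% of all genes fell and 10.2% rose. The mean intensity of the 10 was 6717 to 7294 at day 9 and 7640 to 8036 at day 3. Sftpd (mean levels of 14.49 at day 9 and 14.76 at day 3), Aqp5 (14.22 at day 9 and 14.72 at day 3) and Lyz1 (14.14 at day 9 and 13.46 at day 3) had the highest signals of the 10 and weigh most in that mean, and Lyz1 rose while the other two fell. Ager, the receptor of alveolar type 1 cells, had levels of 6.34, 6.21 and 6.05 on the day 9 arrays, against 8.33, 8.13 and 6.67 on the day 3 arrays. Replicate 3 of day 3 lay closest to the day 9 arrays (-1.51 ± 0.35, adjusted p = 0.00937). Sftpc, the surfactant protein of type 2 cells, was at least 2.33-fold higher at day 9 (adjusted p = 3.30e-04). Sftpb, Sftpa1 and Lamp3 were detected on 0 arrays. The part of other cell types in these differences was not tested.

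The change with time in the scrambled cultures was also set against that in the Myb shRNA cultures, which share no array with them, by testing the difference of the changes (scrambled minus Myb shRNA). That difference passed for 141 genes (1.6%), 72 with the higher change in scrambled cultures (0.816%) and 69 with the lower (0.782%), while 1245 had an unadjusted p under 0.05. Under the replicate block the count was 687, and without day 3 scrambled replicate 3 it was 317. In the Myb shRNA cultures 1487 genes changed with time (16.9%), 860 higher (9.75%) and 627 lower (7.11%). In both arms 510 genes rose and 260 fell, and 11 changed in opposite directions. Across genes, which are not independent, the changes of the arms correlated at r = 0.687. The arms were normalised and fitted together, and effects shared by their same-numbered arrays were not tested, so these counts and r are not from independent comparisons.

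The regulators of multiciliogenesis stood out by that test, with the change lower in scrambled cultures in 4 of 10 detected members. Ccno changed by -0.54 ± 0.22 in scrambled and by 1.57 ± 0.22 in Myb shRNA cultures, a difference of -2.11 ± 0.31 (adjusted p = 0.00661). Mcidas changed by -0.52 ± 0.33 and 1.69 ± 0.33, a difference of -2.21 ± 0.46 (adjusted p = 0.0314). Ccna1 changed by 0.14 ± 0.20 and 2.67 ± 0.20, a difference of -2.52 ± 0.29 (adjusted p = 0.00196). For Foxn4 the difference was -2.15 ± 0.37 (adjusted p = 0.0128). At day 3 the mean levels with Myb shRNA and with scrambled shRNA were 10.25 and 12.09 for Ccno, 4.93 and 8.68 for Ccna1, and 5.395 and 8.075 for Foxn4. At day 9 they were 11.82 and 11.55, 7.60 and 8.82, and 6.74 and 7.27. On the day 3 Myb shRNA arrays Ccna1 was detected on 0 and Foxn4 on 1, so their changes there rest partly on signals below detection. Among the 7 cilium lists, 12 of 155 members had the lower change in scrambled cultures and 0 the higher, including Lrrc23 (-2.43 ± 0.35), Zmynd10 (-1.93 ± 0.32), Tekt1 (-1.78 ± 0.39), Dnali1 (-1.75 ± 0.30) and Dynlrb2 (-1.69 ± 0.26). The opposite held for 4 of 17 goblet cell and mucus genes, with Clca3b at 2.08 ± 0.30 and -0.71 ± 0.30 (difference 2.79 ± 0.43, adjusted p = 0.00778) and Muc16 at 1.87 ± 0.33 and -0.52 ± 0.33 (difference 2.39 ± 0.46, adjusted p = 0.0221). Muc16 was not detected at day 3 in scrambled cultures, so its fitted sizes rest partly on signals below detection.

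**Figure D5:**
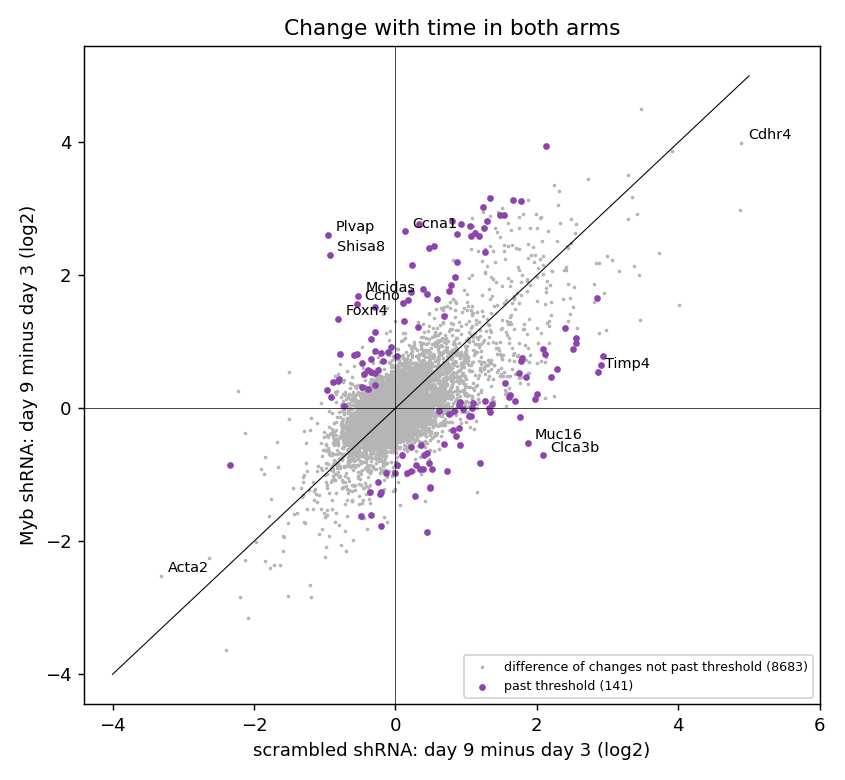
Each point is a detected gene, with its change from day 3 to day 9 in scrambled cultures across and in Myb shRNA cultures up the axis (both log2, day 9 minus day 3); the diagonal marks equal change. The 141 genes in purple passed the test of the difference, among them Ccno, Mcidas and Ccna1 above the diagonal and Clca3b and Muc16 below it.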

How the data were processed

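Total RNA of 12 cultures was hybridised to Illumina mouse bead arrays. The deposited table holds a signal intensity and a detection p-value per probe, not normalised; per the submitters' processing notes BeadStudio 3.0 and limma were used, and the role of each is not given in the sources used here. The deposited processed values are log2 and served as an alternative. Here intensities of all 12 arrays were background-corrected with limma 3.58.1 in R 4.3.3 (neqc, negative controls inferred from the detection p-values, offset 16), quantile normalised and put on the log2 scale. Probes were named through RefSeq identifiers, and each gene was represented by its brightest detected probe. limma was fitted to the 4 group means with a variance trend, and Benjamini-Hochberg adjustment ran over 8824 genes. The number of arrays limits the precision. Same-numbered arrays of the 2 days deviated together (r of 0.446, 0.288 and 0.497), so the numbers were read as pairs on that basis, since the labels do not say what they mark.

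Members and gene lists were chosen with earlier results of these data known. Named genes were the 15 largest rises and falls with non-overlapping groups (clone names left out), up to 6 members of smallest p and 3 of highest level per list, every detected member of the regulator, Notch and other cell type lists, the 10 smallest p and 10 largest values of the arm difference, and the 6 smallest p among genes detected on all arrays. Ttc29 and Cfap206 were added for their promoters after their values were seen, and 14 motif spellings were searched, all of which are reported. Some older symbols were matched by hand. Scripts were tested on simulated data.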

Additional observations from a re-analysis of the deposited data

Results flagged for a closer look

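The change from day 3 to day 9 differed between the scrambled and the Myb shRNA cultures for 141 genes by limma's test of the difference of the changes (scrambled minus Myb shRNA, adjusted p under 0.05), and the named genes among them are listed here. The groups hold 3 arrays each, so single outlying arrays were not tested for.

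The change was lower in scrambled cultures for the regulators Ccna1 (-2.52), Mcidas (-2.21), Foxn4 (-2.15) and Ccno (-2.11). The same direction was seen for the cilium genes Lrrc23 (-2.43), Zmynd10 (-1.93), Tekt1 (-1.78), Dnali1 (-1.75), Dynlrb2 (-1.69), Tppp3 (-1.33) and Rsph9 (-1.13). Plvap had the largest value, at -3.56, followed by Shisa8 at -3.24. Morn5 (-2.02), Efcab11 (-1.82), Akr1c18 (-1.49), Dxo (-1.39), Cdk1 (-1.28) and Adh1 (-1.01) were lower too.

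The change was higher in scrambled cultures for the goblet cell list genes Clca3b (2.79) and Muc16 (2.39). It was also higher for Timp4 (2.32), Dkk3 (2.31), Lbh (2.26), Mex3a (1.57), Tspan6 (1.43), Egfr (0.84), Usp18 (0.82) and Krt8 (0.80). Plvap changed by -0.95 ± 0.21 in scrambled and 2.61 ± 0.21 in Myb shRNA cultures (adjusted p of the difference = 1.29e-04). Lbh changed by 2.91 ± 0.27 and 0.66 ± 0.27 (adjusted p = 0.0128), and Timp4 by 2.87 ± 0.24 and 0.55 ± 0.24 (adjusted p = 0.00559).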

How the results depend on the processing

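The 1605 genes that changed with time came to 2798 with the replicate number as a block and to 4650 with array weights, whose estimate stopped before it converged. In the 6 scrambled arrays alone 1092 genes passed (715 higher and 377 lower), and 1056 of the 1605 kept their call. Leaving out 1 scrambled array gave 835 to 2756 genes, and leaving out replicate 3 of every group, chosen after seeing the data, gave 3538. The 141 genes of the arm difference came to 687 with the replicate block, 36 after median scaling, 3407 with array weights, 72 to 317 without 1 scrambled array and 1423 without replicate 3 of every group. Of the 1605 genes, 1605 kept their call with the block, 1294 after cyclic loess normalisation, 1134 after median scaling and 1572 in the deposited processed values. The sign turned for 1 of them with the mean of detected probes, and for none under the other alternatives. Among named genes Lyz1 turned, to -0.23. Replicate numbers are from the labels; same-numbered arrays of day 9 and day 3 deviated together (r of 0.446, 0.288 and 0.497), and each array correlated best with its own number. With the block on the 6 scrambled arrays alone, 2 named calls were lost (Foxn4 and Mcm3) and 7 gained (Foxj1, Zmynd10, Gp2, Slpi, Krt14, Dtx4 and Krt13). Signals below the detection threshold limit what can be said of low genes. In the scrambled time comparison, genes detected on no array of a day have bounds, and those detected on 1 or 2 have fitted differences. Changes given for the comparison of the arms are fitted throughout, also where a gene was detected on no array of a group. Examples are Muc16 at day 3 in scrambled cultures and Ccna1 at day 3 with Myb shRNA.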
